A study of Mus musculus with 12 samples.

Results

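The transcripts described here are 31 genes known from platelets and from megakaryocytes, the marrow cells that shed platelets. They were found by gene name, all 31 among the 53819 names of each count table, and serve as a gauge of platelet RNA in monocytes that had been kept with platelets. RNA was sequenced from bone marrow monocytes of C57Bl6J mice of WT genotype, in 4 groups with 3 libraries each. One group was untreated, another was kept with platelets overnight, another received LPS only (lipopolysaccharide, a bacterial product sensed by Toll-like receptors), and the last was kept with platelets overnight, washed and then given LPS. The sources used here do not give the origin and number of the platelets, the LPS dose and time, or whether each library is a mouse of its own. Spread between libraries, which the p-values are measured against, may thus be technical.

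Platelets have no nucleus and carry messenger RNA packed by the megakaryocyte. Their surface receptors bind von Willebrand factor, collagen and fibrinogen at a damaged vessel, and their alpha granules release chemokines and adhesive proteins. Gata1, Nfe2 and Gfi1b encode transcription factors of the megakaryocyte. Platelets bind readily to monocytes, and in mice the chemokine gene Pf4 is also transcribed by some monocytes and macrophages.

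Library totals ran from 20060867 to 32155727 counts, so that 3 counts stand for 0.0854 to 0.163 CPM. Levels are CPM, counts scaled to the library total after TMM normalization, given per library in the order of the replicate numbers or as mean ± SD (n = 3). Of the 31 members, 23 had enough counts to be tested among 13151 genes. A member is said to have risen or fallen where edgeR's quasi-likelihood test gave a Benjamini-Hochberg adjusted p under 0.05 over all genes tested. All 12 monocyte markers examined, among them the lysozyme gene Lyz2 at 31194 CPM in untreated cells, had counts in every group. Platelet replicate 1 stood apart from the other libraries of its group, where a chi-square test of their counts, divided by its degrees of freedom, gave 69.1 and 75.8, and the other replicate pairs gave 6.29 to 19.8. Its share of mitochondrial counts was 0.886%, against 0.431 to 0.600% in the other libraries. It was kept in the platelet group by its title and treatment, although its description field reads "Control". Member calls and directions that change without it are named beside the results.

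Sequences upstream of the start site are shown for 6 members with contrasting levels in these libraries. F2rl2, Gp9, Clec1b and Ctla2a rose with platelets, while Pf4 and Ppbp were already abundant in untreated monocytes. Each is the 100 bases before a RefSeq start (GRCm38.p6), 5′ to 3′ on the gene's strand, with capitals marking the letters AGATAA. This motif of the GATA type was searched on both strands.
F2rl2 (chr13:95696820-95696919, plus strand): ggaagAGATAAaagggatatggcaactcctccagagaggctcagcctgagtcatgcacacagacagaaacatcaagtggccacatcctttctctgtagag
Gp9 (chr6:87777970-87778069, plus strand): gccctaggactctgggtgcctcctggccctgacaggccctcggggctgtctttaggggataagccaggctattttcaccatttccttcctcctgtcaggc
Clec1b (chr6:129397197-129397296, plus strand): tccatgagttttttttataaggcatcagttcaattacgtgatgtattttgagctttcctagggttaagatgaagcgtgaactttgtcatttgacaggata
Ctla2a (chr13:60936626-60936725, minus strand): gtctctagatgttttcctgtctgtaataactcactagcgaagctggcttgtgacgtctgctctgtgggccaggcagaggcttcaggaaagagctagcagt
Pf4 (chr5:90772335-90772434, plus strand): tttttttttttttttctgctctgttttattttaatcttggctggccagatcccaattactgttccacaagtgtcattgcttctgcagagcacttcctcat
Ppbp (chr5:90768418-90768517, plus strand): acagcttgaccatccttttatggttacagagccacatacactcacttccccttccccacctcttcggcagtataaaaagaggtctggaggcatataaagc
Over the 250 bases before the start, AGATAA or its reverse complement was found in 5 of the 24 members with a RefSeq promoter, or 20.8%, against 11.4% of 27025 genes. The 5 were Ctla2a, F2rl2, Gp5, Gp6 and P2rx1. The match of Ctla2a lay 195 bases before the start used here, outside the stretch printed. Both ETS-type motifs searched the same way share a core of letters. The motif AGGAAG was found in 11 of the 24 members (45.8%, against 32.3% of genes). The motif CCGGAA was found in 1 of the 24 (4.17%, against 13.6%). These matches are letters in the sequence and say nothing of binding.

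**Figure D1:**
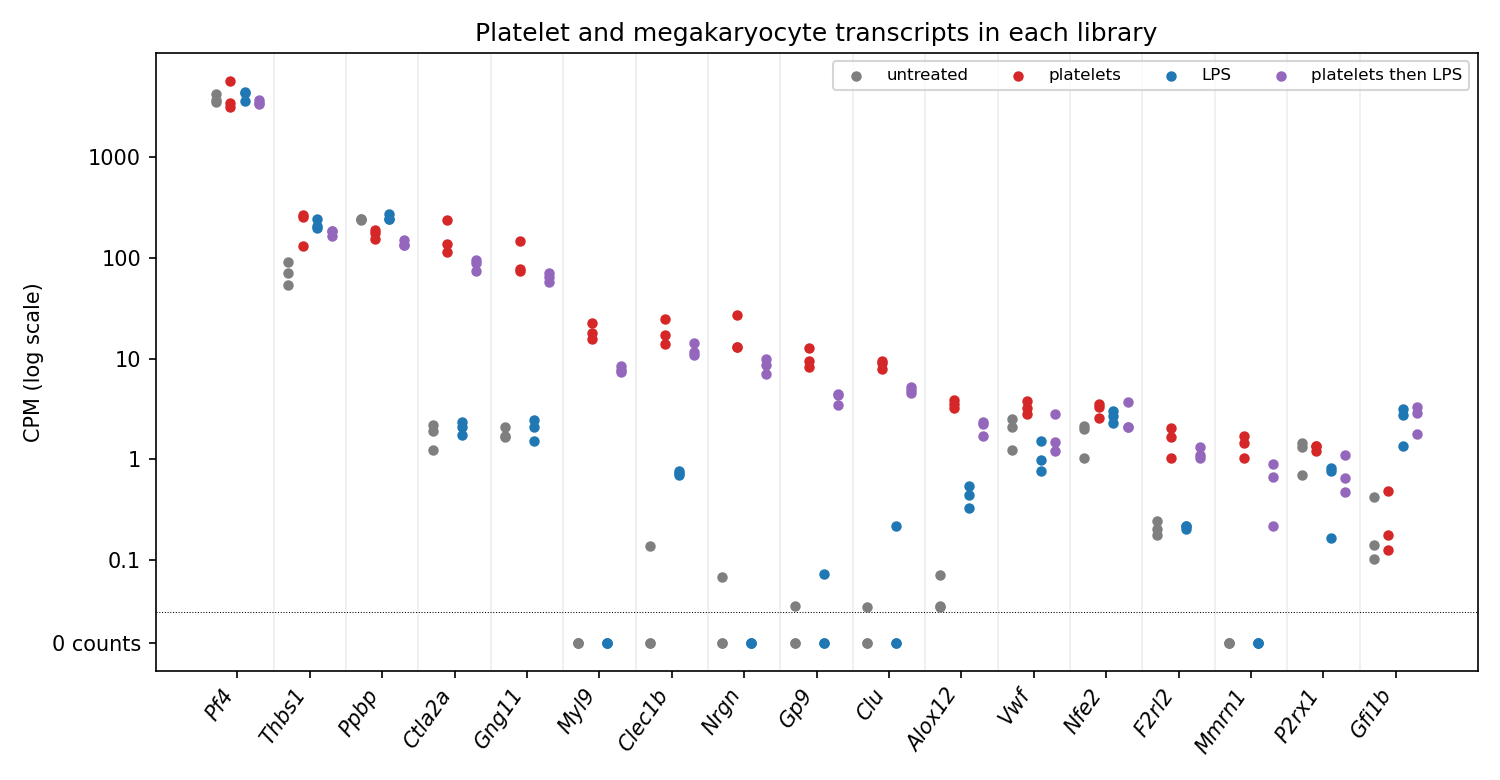
CPM on a log axis for the 17 members with a mean of at least 1 CPM in some group. Each point is 1 library, coloured by group. Pf4, Thbs1 and Ppbp lie above 50 CPM in every library, while Ctla2a, Gng11, Myl9, Clec1b, Nrgn, Gp9, Clu and Alox12 lie at 0 to 2.43 CPM without platelets and higher in all 6 libraries with them.

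The first question was how much platelet RNA was found with monocytes that had been kept with platelets. Of the 23 members tested, 13 rose with platelets against untreated cells and 1, the chemokine gene Ppbp, fell. Over all genes tested 6.49% were called in this comparison, 3.63% higher and 2.86% lower. All exposed libraries lay above all untreated ones for 16 of the 23 tested members, where 12.5% of all genes did so. A member whose counts came mainly from exposed cells could pass the count filter only by being high there, so these counts describe the members and support nothing by themselves. Summed over the 28 members other than Pf4, Ppbp and Thbs1, the level was 9.50, 10.8 and 11.3 CPM in untreated libraries and 501, 305 and 265 CPM with platelets. The group means were 10.5 ± 0.929 and 357 ± 126 CPM. These 28 members took 0.0306 to 0.0542% of all counts with platelets alone. Pf4, Ppbp and Thbs1 were left out of the sum for having at least 10 CPM in untreated cells. Over all members the sum was 4168 ± 349 CPM in untreated cells and 4874 ± 1467 CPM with platelets, with overlap. Pf4 made up 82.0 to 93.2% of that larger sum in these libraries, so the rise in summed level holds only with the abundant members left out. Of the members left out, Thbs1 rose by itself, while Pf4 was not called and Ppbp fell. In bulk RNA, more platelets per monocyte, more RNA per platelet and transcription by the monocytes themselves cannot be told apart.

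The adhesion receptor genes did not move as a block. Gp9, a subunit of the GPIb-IX-V receptor for von Willebrand factor, had 1, 0 and 0 counts in untreated libraries and 360, 300 and 290 counts with platelets, or 12.7, 9.38 and 8.26 CPM. The groups did not overlap (ratio 859.6, counting interval 154 to 33987, adjusted p = 3.51e-08), and the ratio rests on 1 count in untreated cells. Its partner genes were near the floor. Gp1ba, which carries the von Willebrand factor binding site, had 4, 3 and 0 counts without and 2, 12 and 12 with platelets (adjusted p = 0.38). Gp5 had 1 count and Gp1bb 1 count in all 12 libraries together. In GENCODE M21, 92.9% of the exon bases of Gp1bb overlap other genes on its strand, among them Sept5, so its level is uncertain. Itga2b and Itgb3, the chains of the fibrinogen receptor, overlapped between the groups. Itga2b was at 0.0680 to 0.316 CPM without and 0.246 to 0.500 CPM with platelets (adjusted p = 0.568), and Itgb3 at 0.701 to 1.12 and 0.493 to 1.38 CPM (adjusted p = 0.973). Without platelet replicate 1 the difference for Itgb3 turned from log2 −0.067 to 0.23. Thus 1 of 6 adhesion receptor genes rose.

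Among the other receptors, 3 of 5 rose. Clec1b encodes CLEC-2, the platelet receptor for podoplanin. It had 0, 0 and 4 counts in untreated libraries and 705, 548 and 493 with platelets, or 24.8, 17.1 and 14.0 CPM. Every exposed library was above every untreated one (log2 8.52, SE 0.45, adjusted p = 1.52e-08). Gp6, the collagen receptor, had 0 counts in untreated libraries and 13, 39 and 17 with platelets, at least 6.92-fold higher with 3 counts set as the floor in each untreated library (adjusted p = 0.00346). F2rl2, the thrombin receptor PAR3, was at 0.245, 0.175 and 0.204 CPM without and 1.02, 2.06 and 1.68 CPM with platelets, a 7.50-fold rise (log2 2.91, SE 0.41, adjusted p = 0.000412). Treml1, a receptor of the alpha granule membrane, was at 0.238 to 0.316 CPM against 0.512 to 1.44 CPM. Its groups did not overlap, but it missed the threshold (log2 1.58, SE 0.51, adjusted p = 0.0871). P2rx1, a channel opened by ATP, was at 1.16 ± 0.397 and 1.29 ± 0.0835 CPM (adjusted p = 0.884).

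The granule and secreted proteins split between members that untreated monocytes already held and members they lacked. Pf4, platelet factor 4, was the most abundant member in every library. It was at 3542, 3739 and 4249 CPM in untreated cells and 5729, 3495 and 3147 CPM with platelets. Only platelet replicate 1 was above the untreated range, and the difference missed the threshold (log2 0.10, SE 0.16, adjusted p = 0.781). Without that library the difference turned to log2 −0.19 (adjusted p = 0.225). Ppbp, the precursor of a neutrophil-attracting chemokine, was at 244, 238 and 245 CPM in untreated cells and 191, 176 and 156 CPM with platelets. All exposed libraries lay below all untreated ones (log2 −0.48, SE 0.093, adjusted p = 0.00536).

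Thbs1, the matrix glycoprotein thrombospondin 1, which macrophages make too, was at 91.3, 70.7 and 54.3 CPM in untreated cells and 131, 255 and 269 CPM with platelets. It rose 3.03-fold (log2 1.60, SE 0.22, adjusted p = 0.000325), and platelet replicate 1 was the lowest of its group, at 0.500 times the mean of the others. Clu, the secreted chaperone clusterin, had 0, 0 and 1 counts without and 256, 301 and 278 with platelets (ratio 756, counting interval 135 to 29877, adjusted p = 1.52e-07). Mmrn1, the factor V binding protein multimerin 1, had 0 counts in every untreated library and 29, 55 and 51 with platelets, at least 13.4-fold higher (adjusted p = 0.000785). Clu and Mmrn1 were thus nearly absent from untreated cells, unlike Thbs1. Vwf, von Willebrand factor, was at 2.52, 1.23 and 2.11 CPM without and 3.77, 2.78 and 3.22 CPM with platelets, with no overlap and an adjusted p of 0.261. Sparc, a secreted collagen-binding protein, had 5 counts in all 12 libraries, and Selp, the gene of P-selectin, had 0, 0 and 0 counts in untreated cells and 0, 0 and 5 with platelets. In this class 3 of 8 members rose, 1 fell and 2 had too few counts to be tested.

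Of the cytoskeletal, trafficking and signalling members, 6 of 9 rose. Ctla2a, an inhibitor of cysteine proteases, was at 1.23, 2.17 and 1.90 CPM in untreated cells and 239, 139 and 114 CPM with platelets, 92.3-fold higher (log2 6.53, SE 0.29, adjusted p = 3.47e-09). Its close relative Ctla2b, named after its values were seen, was at 0.666 to 1.26 CPM without and 1.14 to 1.34 CPM with platelets. Reads shared by these similar genes could be split or lost in counting. Gng11, a gamma subunit of heterotrimeric G proteins, was at 1.72, 1.65 and 2.07 CPM without and 148, 77.1 and 73.6 CPM with platelets, 54.6-fold higher (log2 5.77, SE 0.27, adjusted p = 6.17e-09). Both Ctla2a and Gng11 had a low level in every untreated library, and platelet replicate 1 was the highest library for both.

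Myl9, a regulatory light chain of myosin, had 0 counts in all 6 libraries without platelets. It had 643, 577 and 550 counts with platelets alone, or 22.6, 18.0 and 15.7 CPM, at least 180.3-fold higher than untreated cells (adjusted p = 4.29e-08). Nrgn, the calmodulin-binding protein neurogranin, had 0, 0 and 2 counts without and 769, 421 and 463 with platelets (ratio 748, counting interval 207 to 6180.4, adjusted p = 3e-07). These genes were at or near 0 in untreated monocytes and present in every exposed library. The same held for Alox12, the platelet 12-lipoxygenase, with 2, 1 and 1 counts without and 109, 114 and 113 with platelets (log2 6.12, SE 0.42, adjusted p = 2.18e-07). Rab27b, a small GTPase of granule secretion, had 0 counts in untreated libraries and 26, 37 and 22 with platelets, at least 8.64-fold higher (adjusted p = 0.000356).

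The other 3 members of this class were too low for the test. Tubb1, the beta tubulin of the platelet marginal band, had 0, 2 and 0 counts without and 2, 9 and 3 with platelets. Cavin2, a coat protein of caveolae, had 0 counts in untreated libraries and 5, 17 and 10 with platelets. Tmem40, a membrane protein gene, had 1, 2 and 1 counts without and 19, 14 and 11 with platelets. The groups did not overlap for Cavin2 and Tmem40, and for Tubb1 they met at 2 counts in a library of each.

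None of the 3 transcription factor genes was called, and 2 of them could be tested. Gata1 had 1, 0 and 0 counts in untreated cells and 7, 9 and 3 with platelets, too few for the test. Nfe2 was at 1.02, 2.14 and 2.01 CPM without and 2.57, 3.50 and 3.27 CPM with platelets, with no overlap (log2 0.86, SE 0.31, adjusted p = 0.12). Gfi1b was at 0.421, 0.140 and 0.102 CPM without and 0.176, 0.125 and 0.484 CPM with platelets, with overlap (adjusted p = 0.861). Neither Nfe2 nor Gfi1b passed the threshold in this comparison by DESeq2, by limma-voom or with any library left out.

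**Figure D2:**
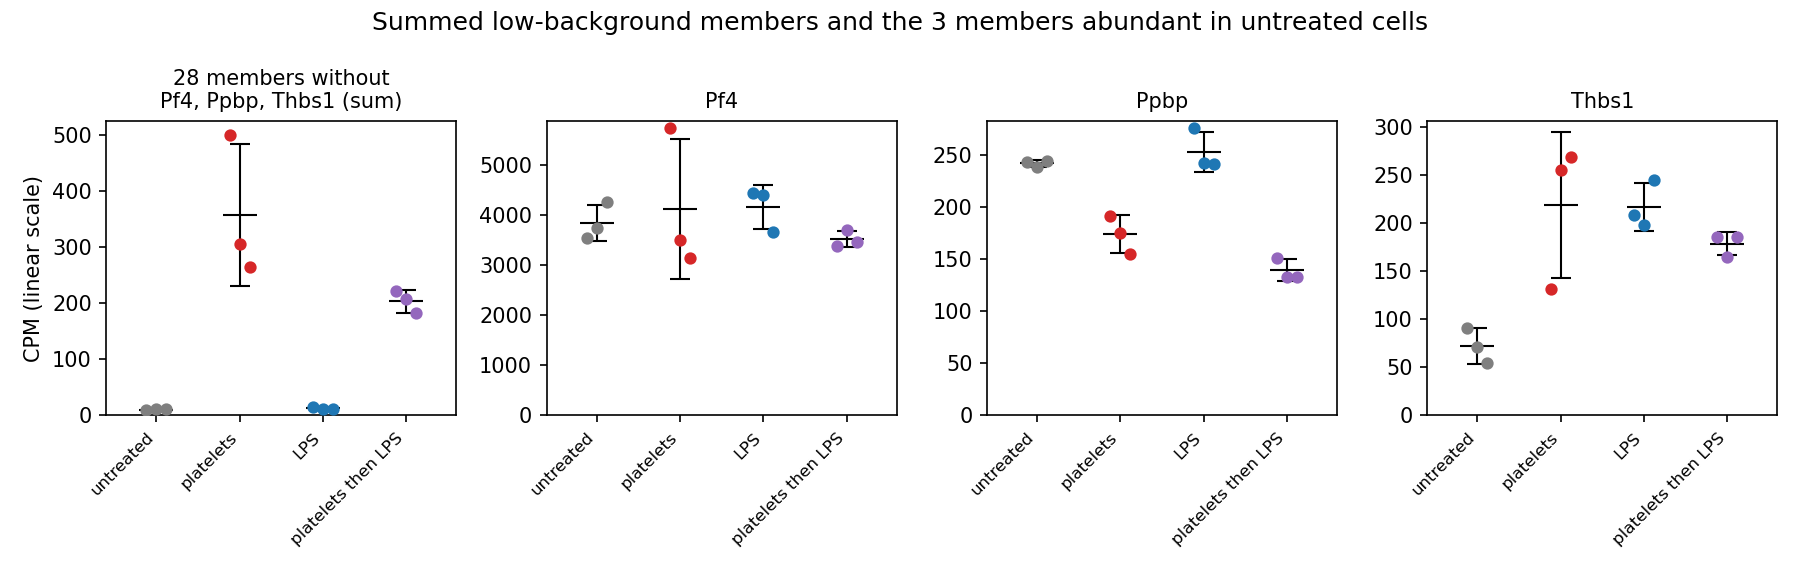
Linear CPM by group for the sum of the 28 less abundant members and for Pf4, Ppbp and Thbs1. Points are libraries, and bars are the mean and SD of 3 libraries. The sum is 9.50 to 15.3 CPM without platelets and 182 to 501 CPM with them, while Pf4 overlaps between the untreated and platelet groups and Ppbp is lower in both exposed groups.

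Between genes, levels were compared per kilobase of exon in GENCODE M21, which may differ from the annotation used for counting. With platelets alone Pf4 stood at 5719.8 CPM per kilobase, Ppbp at 161, Gng11 at 108, Ctla2a at 77.8, Thbs1 at 36.0, Myl9 at 16.2, Nrgn at 12.3 and Gp9 at 11.5. In untreated cells the same scale gave 5331 for Pf4, 224 for Ppbp, 11.9 for Thbs1 and 1.97 for Gng11. Among the 28 less abundant members, Gng11 and Ctla2a together made up 70.7 to 77.1% of the summed CPM with platelets alone. Itga2b, at 0.0630, and Tubb1, at 0.104 CPM per kilobase, were low in the same exposed cells. In GENCODE M21, 16.3% of the exon bases of Ctla2a overlap other genes on its strand, so its level is less certain.

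With LPS present, the second question was whether platelet exposure left the same transcripts. Against LPS alone, 14 of 23 tested members rose and Ppbp fell, where 7.28% of all genes were called, 4.41% higher and 2.87% lower. Gng11 was at 2.43, 2.07 and 1.53 CPM with LPS and 71.6, 64.1 and 58.2 CPM with platelets and LPS, 31.5-fold higher (log2 4.98, SE 0.27, adjusted p = 1.92e-08). Ctla2a was at 2.06 ± 0.303 and 86.4 ± 11.0 CPM, 41.8-fold higher (adjusted p = 1.57e-08). Neither gene overlapped between these groups. Myl9 had 0 counts in all 3 LPS libraries and 212, 197 and 190 with platelets and LPS, at least 59.9-fold higher (adjusted p = 1.94e-07). Nrgn likewise had 0 counts and 239, 233 and 179, at least 65.2-fold higher (adjusted p = 1.5e-06). Gp9 had 2, 0 and 0 counts with LPS and 95, 104 and 112 with both (ratio 144, counting interval 39.4 to 1192, adjusted p = 4.61e-07). These receptor and cytoskeletal genes again went from almost no reads to reads in every library. Clu had 0, 0 and 4 counts with LPS and 126, 113 and 132 with both (log2 6.29, SE 0.53, adjusted p = 1.5e-06). Clec1b was at 0.724, 0.691 and 0.763 CPM with LPS and 14.3, 10.9 and 11.7 CPM with both (log2 4.08, SE 0.31, adjusted p = 5.16e-07), and Alox12 was 4.78-fold higher (adjusted p = 0.000359).

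In all, 12 members rose in both platelet comparisons, which share no libraries but were fitted together with 1 estimate of the spread. They were Gp9, Gp6, Clec1b, F2rl2, Mmrn1, Clu, Myl9, Rab27b, Gng11, Nrgn, Alox12 and Ctla2a. Over all genes tested, 3.63% rose against untreated cells and 4.41% against LPS, so at most 3.63% rose in both. F2rl2 was 5.32-fold higher with LPS present (adjusted p = 0.0027). Mmrn1 had 6, 21 and 17 counts with both against 0 with LPS, at least 4.53-fold higher (adjusted p = 0.00576). These lower members rest on few counts with LPS present. Gp6 had 2, 0 and 0 counts with LPS and 19, 5 and 17 with both (ratio 18.9, counting interval 4.92 to 162, adjusted p = 0.026). Rab27b had 2, 0 and 1 counts against 12, 12 and 14 (ratio 11.7, counting interval 3.71 to 59.3, adjusted p = 0.0133). Gp6 lost its call with the replicate block (adjusted p = 0.0586) and without LPS replicate 2, LPS replicate 3, platelet plus LPS replicate 1 or platelet plus LPS replicate 3 (adjusted p = 0.0731 to 0.101). Rab27b lost its call without LPS replicate 2 (adjusted p = 0.0521).

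Gp1ba and Treml1 passed the threshold with LPS present by a narrow margin. Gp1ba had 0 counts in the LPS libraries and 9, 2 and 19 with both, at least 2.94-fold higher (adjusted p = 0.0379, or 0.0807 with the replicate block). Treml1 was at 0.0545 to 0.244 CPM with LPS and 0.509 to 0.691 CPM with both (log2 2.10, SE 0.60, adjusted p = 0.0474). Its adjusted p was 0.053 with the replicate block and 0.0611 by limma-voom. Gp1ba lost its call without any 1 of 6 libraries (untreated replicate 2, LPS replicates 1, 2 or 3, platelet plus LPS replicates 1 or 3), at adjusted p of 0.0583 to 0.125. Treml1 lost its call without any 1 library other than platelet replicates 1 or 3 or LPS replicate 2, at 0.0638 to 0.168. The interaction, which tests whether the platelet effect differs with LPS, gave adjusted p of 0.493 for Gp1ba and 0.913 for Treml1.

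Ppbp was lower again, at 276, 242 and 242 CPM with LPS and 152, 133 and 133 CPM with platelets and LPS (log2 −0.86, SE 0.094, adjusted p = 2.84e-05). The groups did not overlap. Pf4 was at 4437, 4402 and 3659 CPM with LPS and 3390.4, 3698 and 3456 CPM with both, with overlap (log2 −0.25, SE 0.16, adjusted p = 0.465). It passed the threshold without platelet replicate 1 (adjusted p = 0.0274) and in a fit of these 6 libraries alone (0.024). Thbs1 was at 209, 198 and 245 CPM with LPS and 185, 164 and 186 CPM with both, with no overlap but short of the threshold (log2 −0.28, SE 0.22, adjusted p = 0.541).

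LPS alone raised a few members. Against untreated cells 4 of 23 tested members rose and 1 fell, where 50.7% of all genes were called, 27.7% higher and 23% lower. Thbs1 was at 72.1 ± 18.5 and 217 ± 24.9 CPM (log2 1.59, SE 0.22, adjusted p = 1.89e-05). Gfi1b, a transcriptional repressor of the megakaryocyte and erythroid lineages, had 12, 4 and 3 counts in untreated cells and 87, 33 and 51 with LPS (log2 3.43, SE 0.57, adjusted p = 9.95e-05). Its level with platelets and LPS, 2.68 ± 0.795 CPM, was near that with LPS, 2.42 ± 0.956 CPM (adjusted p = 0.903). Alox12 had 4 counts over the untreated libraries and 15, 8 and 8 with LPS (log2 3.12, SE 0.52, adjusted p = 0.000101). Clec1b had 4 counts over the untreated libraries and 20, 17 and 14 with LPS (log2 3.84, SE 0.67, adjusted p = 0.000166). The 4 members that rose were thus a secreted protein, a transcription factor, an enzyme and a receptor. Itgb3 had 20, 32 and 27 counts without and 10, 0 and 2 with LPS (log2 −2.43, SE 0.79, adjusted p = 0.0171), and lost its call without untreated replicate 2, LPS replicate 2 or LPS replicate 3 (adjusted p = 0.0547 to 0.0601). Vwf was at 1.95 ± 0.662 and 1.09 ± 0.391 CPM (log2 −0.82, SE 0.38, adjusted p = 0.0874), and was called lower with the replicate block (0.0374), without TMM (0.0123), with the upper quartile (0.0335), and without untreated replicate 2 or LPS replicate 1 (0.0391 to 0.0454).

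Gng11 and Ctla2a gave most of the sum over the 28 less abundant members with platelets. They were at 1.81 ± 0.229 and 1.77 ± 0.488 CPM in untreated cells. With LPS they were at 2.01 ± 0.453 and 2.06 ± 0.303 CPM (adjusted p = 0.703 and 0.637). The sum over the 28 less abundant members was 15.3, 12.1 and 11.6 CPM with LPS alone. Over all members the sum was 4650 ± 428 CPM with LPS alone and 4036 ± 144 CPM with platelets and LPS. Its mean was thus lower with platelets there, with overlap between the groups.

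Among exposed cells, 9 of the 23 tested members were lower with LPS than without it. One of the 9 was Ppbp, which had fallen with platelets too. Gfi1b rose (log2 3.30, SE 0.54, adjusted p = 9.55e-05), and the other 13 were not called, where 49.4% of all genes were called, 21.8% lower and 27.6% higher. All libraries with platelets and LPS lay below all libraries with platelets alone for 11 tested members and above them for 1, where 24.6% and 30.2% of all genes did so. The summed level of the 28 less abundant members was 222, 207 and 182 CPM with platelets and LPS, 57.0% of the mean with platelets alone. All 3 of these libraries were below all 3 libraries with platelets alone. Without platelet replicate 1 the mean of the platelet group was 285 CPM in place of 357 CPM.

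The 9 members stood at 40.6 to 80.1% of their platelet group means, and differences between them were not tested. Gp9 was at 40.6% of its platelet group mean, with 3.46, 4.45 and 4.38 CPM (log2 −1.30, SE 0.26, adjusted p = 0.000566). Myl9 was at 41.9%, with 7.71, 8.44 and 7.44 CPM (log2 −1.25, SE 0.18, adjusted p = 0.000111). Nrgn was at 48.1% (adjusted p = 0.00705) and Ctla2a at 52.7% (adjusted p = 0.00169). Both levels rest partly on platelet replicate 1, without which the change was log2 −0.68 in place of −1.05 for Nrgn and −0.61 in place of −0.92 for Ctla2a. These 4 and Ppbp kept their calls in every alternative that was fitted. Clu was at 55.4% (adjusted p = 0.0236), Alox12 at 59.4% (0.0281), Gng11 at 64.9% (0.0196) and Clec1b at 66.0% (0.0453). Clec1b was the only one of the 9 whose groups overlapped. Ppbp was at 174 ± 18.0 and 139.6 ± 10.6 CPM (log2 −0.32, SE 0.093, adjusted p = 0.00969). Mmrn1, Rab27b and P2rx1 had no overlap between the groups but missed the threshold (adjusted p = 0.0761, 0.184 and 0.181). Mmrn1 passed by limma-voom (0.0112), with the stricter filter (0.0487), without TMM (0.0234) and with the upper quartile (0.0358). P2rx1 passed without TMM (0.0435). Vwf was at 3.26 ± 0.493 and 1.84 ± 0.875 CPM, with overlap (log2 −0.81, SE 0.35, adjusted p = 0.0714). It passed by DESeq2 (0.0395), by limma-voom (0.037), with the replicate block (0.0189), with no filter (0.0438), without TMM (0.0102), with the upper quartile (0.0204) and without platelet plus LPS replicate 1 (0.0124).

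Calls for Clec1b, Clu, Alox12 and Gng11 depended on single libraries and on settings. Without platelet replicate 1 the adjusted p was 0.149 for Clec1b and 0.0568 for Alox12, and log2 for Gng11 was −0.28 in place of −0.62. Over the libraries whose omission ended the call, adjusted p was 0.0506 to 0.149 for Clec1b (platelet replicates 1 and 2, all LPS replicates, platelet plus LPS replicates 2 and 3). It was 0.0515 to 0.0752 for Clu (platelet replicate 2 and all platelet plus LPS replicates) and 0.0506 to 0.103 for Alox12 (platelet replicates 1 and 2, platelet plus LPS replicates 2 and 3). For Gng11 it was 0.054 to 0.0792 (platelet plus LPS replicates 2 and 3). Clec1b had an adjusted p of 0.0529 with the replicate block, Alox12 0.0981 with no filter and Gng11 0.0541 with only the groups compared.

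Thbs1 and Pf4, at 81.7 and 85.2% of their platelet group means, missed the threshold (adjusted p = 0.288 and 0.264). Thbs1 passed it without platelet replicate 1 (log2 −0.61, adjusted p = 0.00222), and Pf4 without platelet replicate 3 (log2 −0.39, adjusted p = 0.0456). Without platelet replicate 1 the difference for Pf4 turned from log2 −0.23 to 0.024. Both passed with no filter (adjusted p = 0.0265 and 0.029), without TMM and with the upper quartile.

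With library size in place of TMM, the median log2 change of all genes moved by −0.38 for LPS against untreated cells and by −0.36 for platelets and LPS against platelets, and 14 members were then called lower in the latter. The upper quartile moved these medians by −0.20 and −0.24. The changes with LPS are thus relative to the other genes of the same library. A wash is described above for the group with platelets and LPS, and the time between washing and RNA isolation is not given for any group. The parts of wash and time in the fall cannot be told apart from that of LPS.

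**Figure D3:**
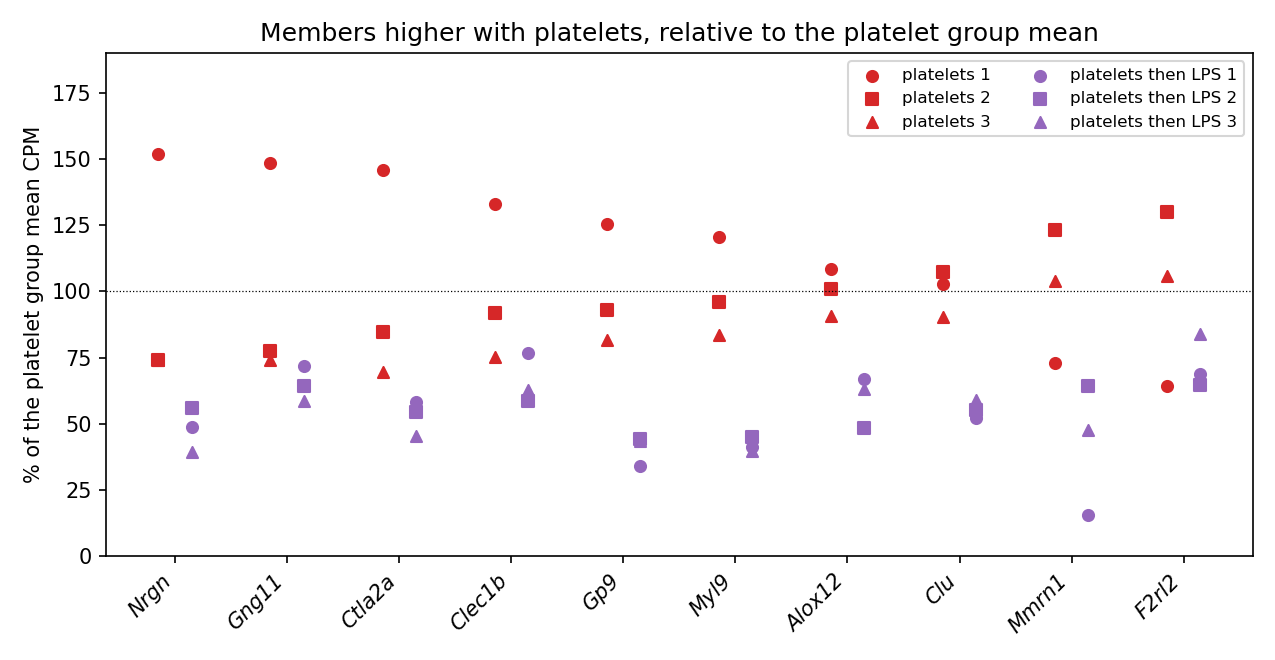
Level of the 10 members that rose in both platelet comparisons and had at least 1 CPM with platelets, in each exposed library, as percent of the mean of the 3 libraries with platelets alone. Colours mark the group. Platelet replicate 1 is highest for 7 of the 10, and for 8 of the 10 all libraries with platelets and LPS lie below all libraries with platelets alone.

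The interaction called 3 members, all lower, where 0.722% of all genes were lower and 0.859% higher. By edgeR, DESeq2 and limma-voom 0 members were called higher, and by edgeR 0 were higher and 6 lower at an unadjusted p under 0.05. Among the 13151 genes tested, Rab27b ranked 844 by this p (0.0219) and Gp1ba ranked 1497 (0.0562). Hence at least 844 and fewer than 1497 of all genes were under 0.05, in either direction. For Clec1b the platelet effect was log2 8.52 without LPS and 4.08 with it (difference −4.44, SE 0.71, adjusted p = 0.00388). For Alox12 it was log2 6.12 and 2.26 (difference −3.86, SE 0.58, adjusted p = 0.00286). Both had only 4 counts over the untreated libraries and more with LPS alone, while their exposed levels were closer, at 18.7 ± 5.55 and 12.3 ± 1.79 CPM for Clec1b and 3.54 ± 0.311 and 2.10 ± 0.344 CPM for Alox12. For Thbs1 it was log2 1.60 and −0.28 (difference −1.88, SE 0.31, adjusted p = 0.00487).

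The members did not keep a fixed ratio to each other among exposed libraries. In platelet replicate 1, Nrgn was at 2.05 times the mean of platelet replicates 2 and 3, Gng11 at 1.96 times, Ctla2a at 1.89 times and Pf4 at 1.72 times. Clec1b was at 1.59, Gp9 at 1.44 and Myl9 at 1.34 times. Alox12 and Clu were near equal at 1.13 and 1.04 times, while Mmrn1 at 0.644 and F2rl2 at 0.545 times were lower there. All 13 members that rose with platelets, and Ppbp, which fell, passed the threshold without this library too. With LPS the exposed libraries were closer together, Gng11 at 58.2 to 71.6 CPM and Ctla2a at 74.2 to 95.7 CPM.

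Other genes of platelets and megakaryocytes were examined from lists beside the members. Of 22 tested genes of platelet surface and signalling, 7 rose and 1 fell with platelets (median log2 0.29, all genes 0), and 6 rose and 1 fell with LPS present (median 0.090, all genes 0.013). Cd226, an adhesion molecule of platelets and lymphocytes, was at 0.0351, 0.0701 and 0 CPM in untreated cells and 7.43, 10.2 and 7.97 CPM with platelets (ratio 246, counting interval 84.0 to 1197, adjusted p = 6.62e-08). P2ry12, the platelet ADP receptor, which some macrophages also carry, was at 2.24, 0.877 and 1.67 CPM without and 11.5, 18.9 and 18.0 CPM with platelets (log2 3.34, SE 0.33, adjusted p = 8.58e-06). Both were above the untreated range in every exposed library. The tetraspanin gene Cd9 and Rgs18, a regulator of G protein signalling, were 1.67-fold and 1.56-fold higher (adjusted p = 0.000295 and 0.00154), from 213 and 25.3 CPM in untreated cells. All 4 also rose with platelets when LPS was present, P2ry12 by 22.2-fold and Rgs18 by 2.39-fold. Both P2ry12 and Rgs18 were called lower with LPS alone than in untreated cells, and no interaction in this list was called.

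Of 22 tested genes of granules and secretion outside the members, 4 rose and 0 fell with platelets (median log2 0.15), and 4 rose and 0 fell with LPS present (median 0.028). Angpt1, a ligand of the endothelial receptor TIE2, had 0 counts in untreated libraries and 22, 22 and 21 with platelets, at least 6.59-fold higher (adjusted p = 0.000833). The granule proteoglycan gene Srgn, the granule membrane gene Cd63 and Pdgfb, a growth factor chain, were 1.68-fold, 1.47-fold and 1.44-fold higher (adjusted p = 0.00126, 0.0141 and 0.0356). These 3 were already at 49.9, 513 and 6.35 CPM in untreated monocytes. With LPS present Cd63 and Pdgfb rose again (adjusted p = 0.0487 and 0.00109), while Angpt1 missed the threshold (0.0735). Srgn was at 365 CPM with LPS and 364 CPM with both (adjusted p = 0.995), and its interaction was called lower (adjusted p = 0.0353). Of 26 tested genes of megakaryocyte regulation and cytoskeleton, 3 rose and 4 fell (median −0.051), and 1 rose and 3 fell with LPS present (median 0.085). Pdzk1ip1, a membrane protein gene, had 1 count in untreated cells and 64, 34 and 40 with platelets (ratio 125, counting interval 22.0 to 4967, adjusted p = 0.000186). Sh3bgrl2 was 1.78-fold higher (adjusted p = 0.00343). Tln1 and Flna, which link integrins to actin, were 1.39-fold and 1.40-fold lower, from 622 and 1322 CPM (adjusted p = 0.0159 and 0.0245). None of these 4 was called with LPS present, where adjusted p was 0.178 for Pdzk1ip1, 0.679 for Sh3bgrl2, 0.822 for Tln1 and 0.791 for Flna. Sh3bgrl2 was then at 21.1 CPM with LPS and 19.2 CPM with both. The interaction was called lower for Pdzk1ip1 and Sh3bgrl2 (adjusted p = 0.0418 and 0.0299).

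Leaving out names of predicted genes and pseudogenes, 151 genes rose in both platelet comparisons with at least 10 CPM in the platelet group and no overlap between groups in either. Ordered by log2 change with platelets alone, the first 6 were members, Myl9, Nrgn, Gp9, Clec1b, Ctla2a and Gng11. The members were chosen with earlier results of these data known, so their place in this order supports nothing by itself. The 8 largest among the rest were the alpha globin gene Hba-a1, the cholesterol exporter genes Abcg1 and Abca1, P2ry12, the oxygen sensor gene Egln3, the histone gene H2bc4, the inhibitory receptor gene Cd300lf and the lipid transfer gene Pltp. Their log2 changes ran from 5.54 for Hba-a1 to 2.04 for Pltp. A log2 change from almost no counts, as for Myl9, depends on the prior count of the fit, so the order among the first 4 is not exact.

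Markers of other blood cells were measured beside the platelet transcripts, and their part in the results was not tested. Of 17 erythroid markers found, 7 were tested and 3 rose with platelets, all globin genes. Hba-a1 was at 0.210, 0.281 and 0.238 CPM in untreated cells and 8.03 to 17.6 CPM with platelets (log2 5.54, SE 0.39, adjusted p = 2.51e-07), and Hbb-bs and Hba-a2 were 5.31-fold and 6.51-fold higher (adjusted p = 0.00229 and 0.00793). Hba-a1 and Hba-a2 are near-identical, so their reads may be split between them. The 3 globin genes also fell with LPS among exposed cells, Hba-a1 to 6.99, 6.34 and 5.32 CPM (adjusted p = 0.0132). Without platelets, the globin genes Hbb-bs, Hbb-bt and Hba-a1 were likewise called lower with LPS than in untreated cells. The summed erythroid list was 39.3 to 41.6 CPM in untreated cells, 45.7 to 60.0 CPM with platelets, 76.6 to 82.8 CPM with LPS and 119.6 to 128 CPM with both. Most of that sum was Slc25a37, a mitochondrial iron carrier, at 30.1, 25.0, 72.3 and 109 CPM. Against LPS alone, 5 of the 7 tested markers rose with platelets and LPS, where 4.41% of all genes did. They were Hbb-bs, Hbb-bt, Hba-a1, Hba-a2 and Slc25a37, and the interaction for Slc25a37 was called higher. Epor, Car1, Rhag and Trim10 were among the markers with 0 counts with platelets alone.

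Of 12 basophil and mast cell markers, 7 were tested and 4 rose with platelets, Prss34, Mcpt8, Hdc and Gata2. Mcpt8, a basophil protease, was at 0.140, 0.491 and 0.238 CPM without and 2.50, 2.31 and 2.82 CPM with platelets (adjusted p = 0.00623), and the protease gene Prss34 was 4.21-fold higher (adjusted p = 0.00146). Mcpt8 and Prss34 also rose with platelets when LPS was present, while Hdc and Gata2 did not. The list sum was 1.82 to 2.77 CPM without and 8.41 to 10.2 CPM with platelets, and 105 to 109 and 84.1 to 95.8 CPM with LPS, most of the latter from the histamine enzyme gene Hdc at 103 and 80.4 CPM. Tpsb2 and Cma1 had 0 counts in untreated and platelet groups. Of 10 stem and progenitor markers, 8 were tested, and Gata2 was among those that rose while Procr fell. The sum of these markers was 20.4 to 24.8 and 19.0 to 21.3 CPM.

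Of 11 tested neutrophil markers Mmp9 rose and Mmp8 fell, with list sums of 365 to 391 CPM without and 205 to 229 CPM with platelets. Ccr7, Bst2, Flt3 and Fscn1 rose among 12 tested dendritic cell markers, with sums of 381 to 414 and 468 to 559.7 CPM. Few B cell, T and NK cell, or stromal and endothelial markers reached the count filter. Their sums without and with platelets were 2.81 to 4.32 and 4.51 to 5.03 CPM for B cells, with Pax5, Vpreb3 and Igll1 among those at 0 in untreated cells. They were 74.5 to 84.7 and 61.2 to 69.5 CPM for T and NK cells, with Cd3e at 0 in both, and 1.26 to 2.04 and 1.94 to 2.36 CPM for stroma and endothelium, with Tek and Emcn at 0 in both. Among 12 monocyte markers Lyz2 was 1.21-fold higher and Ccr2 1.46-fold lower with platelets (adjusted p = 0.0163 and 0.0026).

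**Figure D4:**
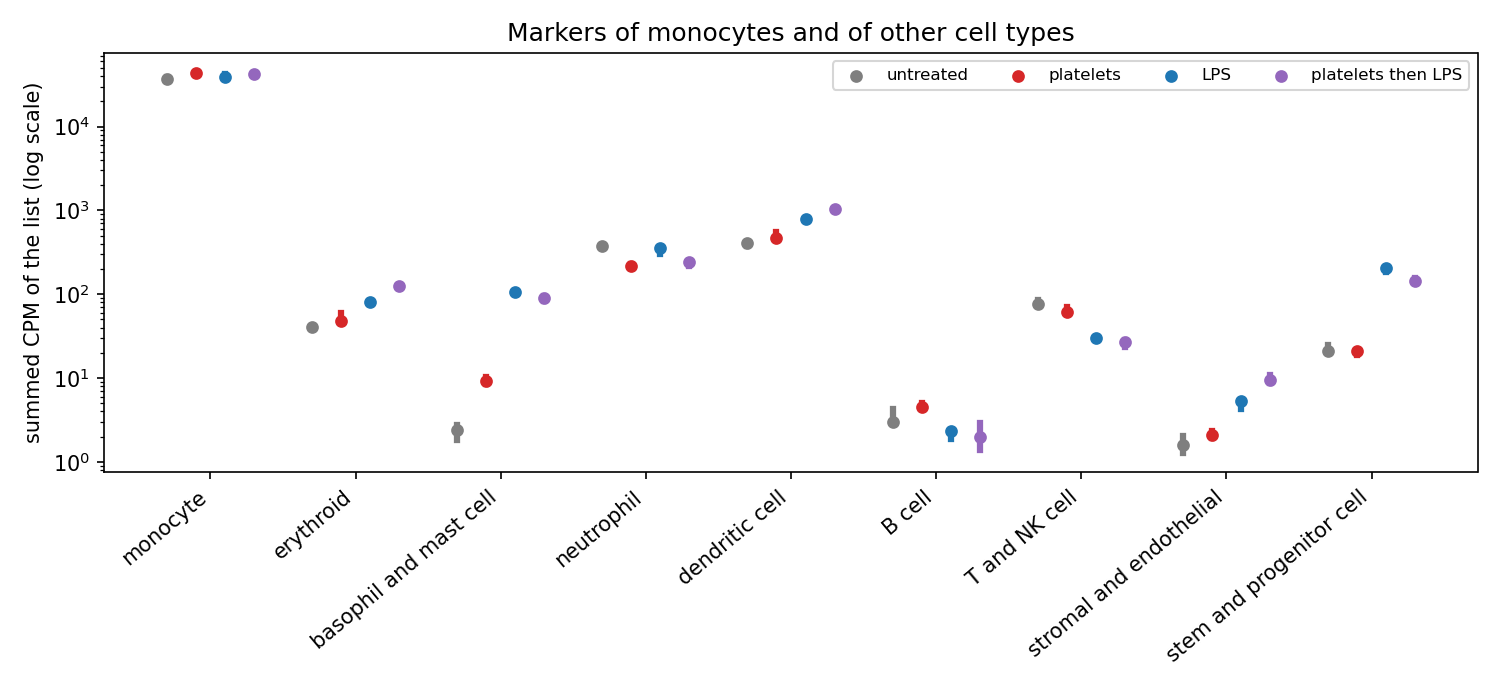
Summed CPM on a log axis of the marker lists for monocytes and other cell types, by group. Points are the median and bars the range of the 3 libraries. The monocyte sum is 35423 to 44732 CPM over all groups, and the basophil and mast cell sum is 1.82 to 2.77 CPM untreated and 8.41 to 10.2 CPM with platelets.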

How the data were processed

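Per the labels' protocols, cDNA was amplified with a SMARTer Ultra Low Input kit and libraries were made with NexteraXT. Each deposited file gives a library's raw read counts by gene. Per the submitters' processing notes, fastp 0.23.1, STAR 2.7.9a, Subread 2.0.1, featureCounts and Salmon 1.5.2 were used. Genome build, annotation and strandedness: not given in the sources used here.

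Of 53819 genes, 26048 had a count and 13151 passed filterByExpr. Counts of all 12 libraries were fitted in R 4.3.3 with edgeR 4.0.16 (TMM, two-sided quasi-likelihood test, 4 group means, 8 residual degrees of freedom, common dispersion 0.0171) in 5 contrasts, with p-values adjusted by the Benjamini-Hochberg method over all genes tested. The fit was tested on simulated data with platelet changes planted in well-covered genes only and no LPS effect. That test thus does not bear on members near the floor or on changes with LPS. Samples were grouped by title. The members and lists were chosen with earlier results of these data known. All 31 members are reported. Of each other list, up to 4 called genes with the smallest p are named, and beyond the lists the 8 largest rises shared by both platelet comparisons (at least 10 CPM, no overlap, no predicted genes or pseudogenes). Mrvi1 was looked up as Irag1, and Ahsp was not matched. Results for a few listed genes are not reported here. A fold against 0 counts is a lower bound with 3 counts in each library of the lower group. Ratios against 1 to 3 counts have exact 95% intervals. Both cover counting error only, since reads copied by PCR, with no molecular identifiers, are not separate molecules.

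The alternatives tried were DESeq2 1.42.0, limma-voom (limma 3.58.1), other scalings, no filter, a stricter filter (1 CPM and 10 counts in 3 libraries), a replicate block, only the groups compared, and each library left out.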

Additional observations from a re-analysis of the deposited data

Results flagged for a closer look

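The platelet effect differed with and without LPS, by edgeR's interaction test over all genes tested, for 3 members. The difference was log2 −4.44 for Clec1b (adjusted p = 0.00388), log2 −1.88 for Thbs1 (adjusted p = 0.00487) and log2 −3.86 for Alox12 (adjusted p = 0.00286). For Clec1b and Alox12 the comparison without LPS rests on 4 counts each over the untreated libraries, against 51 and 31 counts over the LPS libraries. Thbs1 was 3.03-fold higher with platelets alone and 3.01-fold higher with LPS alone. With both, its level was 178 ± 12.1 CPM, against 217 ± 24.9 CPM with LPS alone and 218 ± 75.9 CPM with platelets alone. All 3 differences stayed past the threshold in every alternative that gave them an adjusted p.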

How the results depend on the processing

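All 14 member calls of platelets against untreated held in every alternative that tested them, as did 11 of 15 with LPS present, 4 of 5 for LPS alone, 6 of 10 for LPS among exposed cells and 3 of 3 for the interaction, where DESeq2 gave no adjusted p for Alox12. The number of genes called for platelets against untreated (854) was 1291 by DESeq2, 415 with only the groups compared and 410 to 1027 with 1 library left out. For platelets plus LPS against LPS (957) it was 557 to 1640 with 1 library left out, highest without platelet replicate 1. For the interaction (208) it was 371 with no filter, 403 by DESeq2, 118 with the replicate block and 87 to 361 with 1 library left out. Members lower were 2 in place of 1 for platelets plus LPS against LPS with only the groups compared (1 to 2 with 1 library left out). For LPS against untreated they were 4 without TMM, 2 with the upper quartile and 2 with the replicate block, in place of 1 (0 to 2 with 1 library left out). For platelets plus LPS against platelets they were 14 without TMM in place of 9 (5 to 11 with 1 library left out), and for the interaction 5 with no filter in place of 3. Without TMM the summed level was 12.1 CPM in untreated cells and 179 CPM with platelets and LPS. Direction turned for LPS against untreated without TMM for F2rl2 (−0.35), Pf4 (−0.26), Ppbp (−0.32), Gng11 (−0.21) and Ctla2a (−0.16), and with the upper quartile for F2rl2 (−0.17), Pf4 (−0.088), Ppbp (−0.14) and Gng11 (−0.032). None of these had been called in the main fit, but without TMM Ppbp was called lower by edgeR (adjusted p = 0.00465). With 1 library left out, direction also turned for members that had not been called. In platelets against untreated the log2 range was Itgb3 −0.56 to 0.23, P2rx1 −0.093 to 0.35, Pf4 −0.19 to 0.26 and Gfi1b −0.55 to 1.12. In platelets plus LPS against LPS the log2 range was P2rx1 −0.081 to 0.59, Gfi1b −0.15 to 0.40 and Nfe2 −0.35 to 0.11. In LPS against untreated the log2 range was Itga2b −1.11 to 0.031, F2rl2 −0.078 to 0.16, Ppbp −0.0014 to 0.099 and Clu −1.85 to 3.76. In platelets plus LPS against platelets the log2 range was Itga2b −0.33 to 0.36, Gp1ba −0.33 to 0.99, Gp6 −0.74 to 0.16 and Pf4 −0.39 to 0.024. With no filter, Cavin2 (adjusted p = 0.00189 and 0.024 in the platelet comparisons), Tmem40 (0.033 with platelets alone) and Selp (0.0115 with LPS alone) were called. Libraries with the same replicate number did not deviate together: of 18 correlations of their deviations, from −0.228 to 0.140, 1 was over 0.1. Apart from the causes that the fits' own construction gives (fewer genes, fewer samples, other scaling), the cause was not tested. Depth limits the 8 untested members, whose totals were too low to show a change of moderate size.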
